A study of Mus musculus with 32 samples.

Results

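The proteasome genes of single mouse hippocampal neurons were compared between the dendrites and the soma of the same cell. Members were taken by symbol from the table of 3′UTR read counts: Psma to Psmg followed by a number, with pseudogene symbols left out. This gave 50 of the 44081 genes in the table, of which 45 were tested because a minimum of 16 of the 32 libraries held a read of them. The 50 symbols held 8 of the alpha ring, 11 of the beta ring, 6 ATPases, 11 non-ATPase regulatory subunits, 5 activators or inhibitors, 7 assembly chaperones and 2 others. By symbol alone, 19 belonged to the core particle (Psma, Psmb) and 21 to the regulatory particle (Psmc, Psmd).

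The 32 libraries came from 16 neurons of C57BL/6 mice, taken at embryonic day 18 and kept in culture for 15 days, with 1 dendrite library and 1 soma library for each neuron. Both groups share strain, age and culture, and no other treatment was given. The dendrites of a cell were cut off and drawn up together with a micropipette, so that a library held many dendrites of 1 cell and could hold some axon. Polyadenylated RNA was amplified by the aRNA method, which copies RNA by in vitro transcription, with 3 rounds for 4 neurons (1 to 4) and 2 rounds for the other 12.

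The proteasome is the large protease that degrades proteins tagged with ubiquitin. Its barrel-shaped core particle is built of alpha and beta rings, and the beta rings carry the catalytic sites. A regulatory particle caps the barrel: a ring of ATPases unfolds the substrate and opens the gate, while the non-ATPase subunits bind ubiquitin, remove it and hold the particle together. Chaperones assist assembly of both particles but are not part of the finished complex. In neurons, proteasomes are found in dendrites and at synapses, where protein degradation takes part in synaptic plasticity.

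Depth and quality differed between the compartments. Total 3′UTR reads ran from 646521 to 6954420 for the dendrites and from 925525 to 21169974 for the somas, and mitochondrial genes took 15.3% of the dendrite reads against 2.02% of the soma reads on average. The dendrites of neurons 15 and 16 stood apart, with 1570 and 2485 genes at 10 or more reads and 35.8% and 32.4% mitochondrial reads. Among markers of pyramidal neurons, Map2 and Snap25 were abundant in both compartments. Grin1, Neurod6, Camk2a, Slc17a7 and Rbfox3, from the same list, had medians well below those of Map2 and Snap25 in both. The summed level of the interneuron markers Gad1, Gad2 and Slc32a1 was at least 4375 normalized reads in every library. Its median was 8666 in dendrites and 24990 in somas. The 6 astrocyte markers summed to 0 to 1492 normalized reads in dendrites (median 449) and to 0 to 1325 in somas (median 155), with Gfap and Aldh1l1 at a median of 0 in both. Microglia markers summed to a median of 30.3 in dendrites and 1.15 in somas, oligodendrocyte markers to 84.3 and 56.2, and endothelial markers to 7.36 and 1.44. Their part in the results was not tested.

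Somas carried nearly the whole set of proteasome transcripts, and dendrites carried most of it but rarely all. A soma library had 42.9 ± 2.91 (SD, n = 16) of the 50 genes at 10 or more reads, with a range of 34 to 46. Dendrite libraries had 30.3 ± 10.5 (SD, n = 16), from 5 to 42. In 16 of 16 neurons the soma held more of these genes than the dendrites. With both libraries of a neuron thinned to the same number of reads, the means were 42.1 in somas and 30.3 in dendrites, and with equal reads outside mitochondrial genes, a choice made after seeing the data, they were 41.9 and 30.3. On exon counts they were 42.8 and 29.8. The dendrites of neurons 15 and 16 had 9 and 5 of the genes. Over all genes, a mean of 9206 in somas and 5827 in dendrites had 10 or more reads, with the soma higher in 15 of 16 neurons. A lower number in dendrites was thus not particular to proteasome genes.

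Complete sets were the exception in dendrites. The 14 constitutive subunits of the core particle were all at 10 or more reads in 15 of 16 somas and in 3 of 16 dendrites, those of neurons 4, 11 and 14. All 6 ATPases were present in 16 somas and 3 dendrites, and all 11 non-ATPase subunits in 13 somas and 3 dendrites. Neuron 14 had the only dendrites with all 31 subunits, compared with 13 somas.

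**Figure D1:**
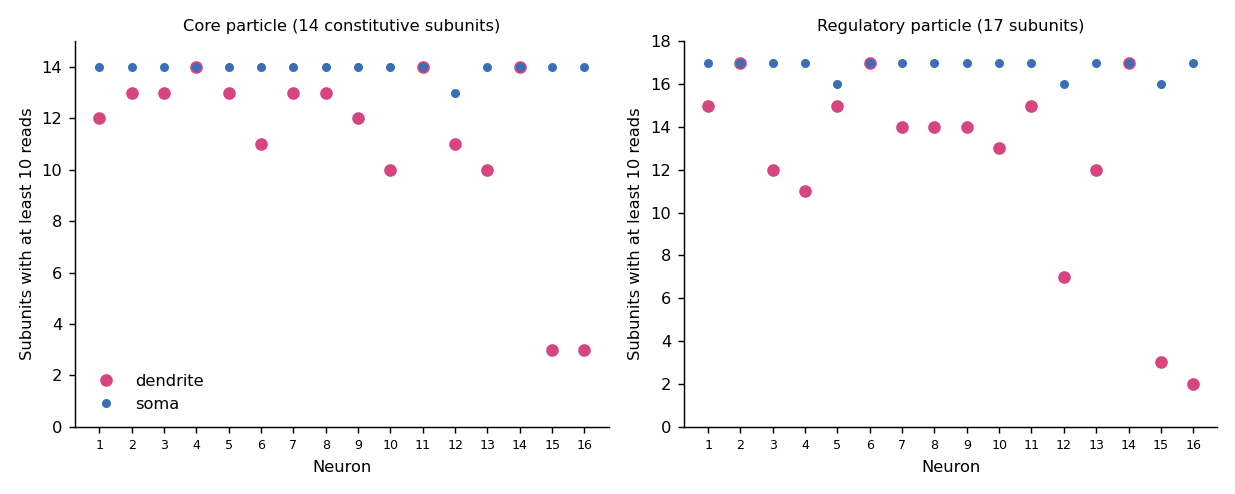
Number of core (left) and regulatory (right) subunits with at least 10 reads in the dendrites and the soma of each neuron, 1 point per library. Somas sit at or next to the full number of 14 and 17, while dendrites vary and fall to 3 core subunits in neurons 15 and 16.

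The share of reads that fell on proteasome genes was also lower in dendrites. The 50 genes together made up 0.378% ± 0.134 (SD, n = 16) of dendrite and 0.662% ± 0.156 of soma reads, with the soma higher in 15 of 16 neurons and neuron 14 as the exception. Core subunits contributed 0.196% ± 0.0599 of dendrite and 0.316% ± 0.0891 of soma reads, and regulatory subunits 0.132% ± 0.0838 and 0.273% ± 0.0642. These are parts of a library, so that a larger mitochondrial share lowers every other share. Without mitochondrial genes in the total, the 50 genes made up 0.438% ± 0.123 (SD, n = 16) of dendrite and 0.675% ± 0.152 of soma reads, and the soma was again higher in 15 of 16 neurons.

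Added spike-in RNA gives a scale that does not depend on the other genes of a library. Neurons 1 and 2 were left out because their labels give a spike-in dilution of 0, although their libraries list 59 to 80 reads on spike-in sequences. In the other 14 neurons, the exon reads on proteasome genes per spike-in read ranged from 0.0203 to 1.80 in dendrites (median 0.336) and from 0.628 to 11.0 in somas (median 2.44). Each soma held more than its own dendrites, by 1.00 to 95.2 times with a median of 8.80 times. In neuron 5 the compartments were level, at 1.80 in the dendrites and 1.81 in the soma.

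Which proteasome genes differed between the compartments was tested with edgeR's quasi-likelihood test, with the neuron as a block. Fold changes are dendrites over somas, so that negative values are higher in somas. Of the 45 tested members, 4 were higher in somas, against 5.71% of all 10880 genes tested, and 0 were higher in dendrites, against 0.827%. At an unadjusted p under 0.05, 21 members were higher in somas (background 26.7%) and 0 in dendrites (background 3.55%), while DESeq2 called 33 in somas (background 46.2%) and 1 in dendrites (background 4.26%), which was Psme2b. The fitted log2 fold change was below 0 for 44 of 45 members, where 78.8% of all genes were below 0. The median gene stood at -1.49 on this scale and the median member at -1.88, so that 28 members lay below the median gene and 17 above it. The members with reads in too few libraries to test were Psma8, Psmb8, Psmb9, Psmb11 and Psmc3ip, and the last of these is a meiotic recombination factor that matched only by its symbol.

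**Figure D2:**
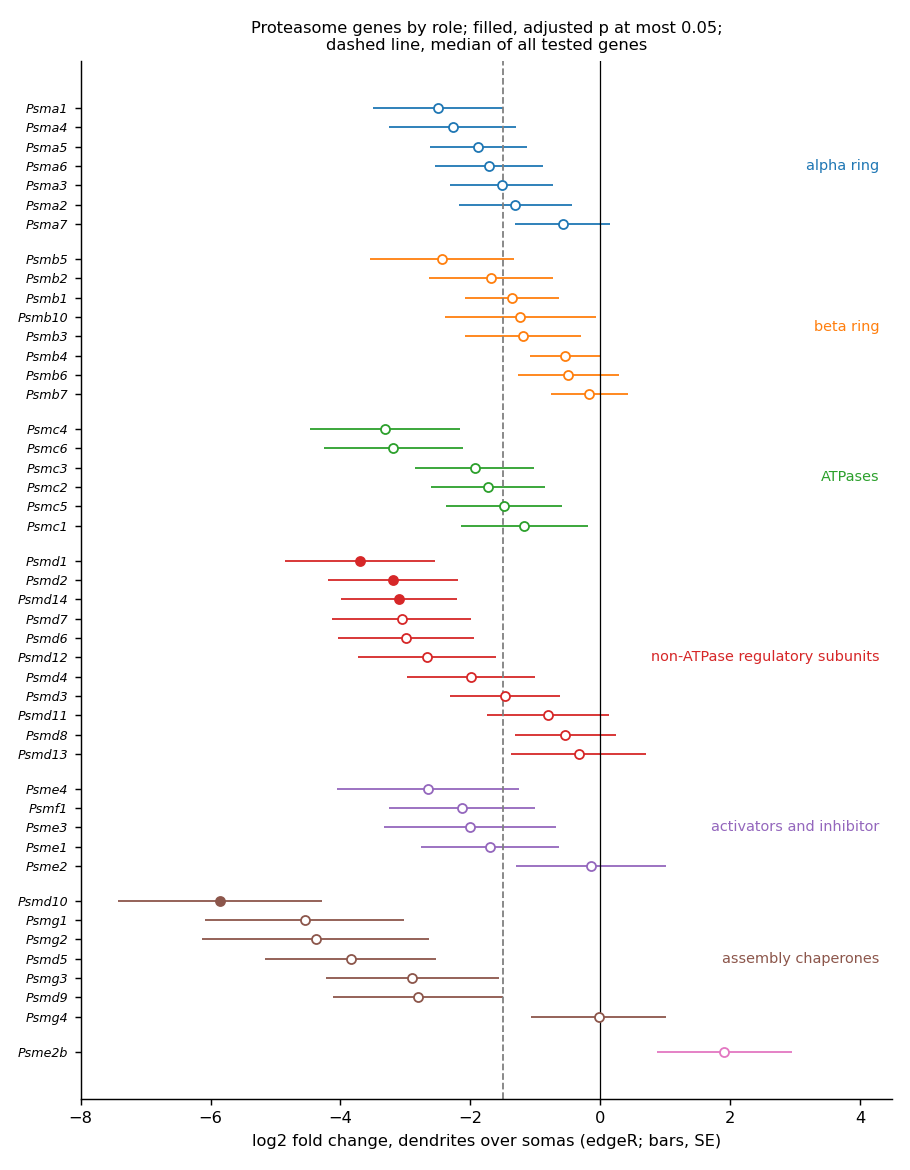
Fitted log2 fold change (dendrites over somas) of the 45 tested proteasome genes by role, with bars for the SE; filled points have an adjusted p of at most 0.05 and the dashed line marks the median of all tested genes, -1.49. The beta ring lies mostly to the right of the dashed line, the chaperones mostly to the left, and the lone point at the bottom is Psme2b.

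The genes that passed the test were 3 non-ATPase regulatory subunits and 1 chaperone. Psmd10, or gankyrin, is a chaperone of the regulatory ATPases and lies on chromosome X (140948429 to 140956728, minus strand, GRCm38). Its reads were found in 6 of 16 dendrites and 14 of 16 somas. Normalized reads, which are counts divided by the size factor of the library, had a lowest, median and highest value of 0, 0 and 390.5 in dendrites and 0, 59.0 and 333.5 in somas. The ranges overlap, but the soma was higher in 13 of the 14 neurons with reads; neuron 1, with 390.5 in the dendrites and 70.6 in the soma, went the other way. The log2 fold change was -5.85 ± 1.58 (SE), with an adjusted p of 0.0231 in edgeR's quasi-likelihood test.

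Psmd14 is the deubiquitinase that cuts ubiquitin from the substrate (chromosome 2, 61711694 to 61800376, plus strand). In dendrites its normalized reads went from 0 through a median of 141.9 to 1087, and in somas from 222.3 through 793.5 to 1967. In 14 of 16 neurons the soma was higher, while neurons 13 and 14 were level, at 773.0 against 767.3 and 834.9 against 828.4. The log2 fold change was -3.10 ± 0.90 (SE; adjusted p = 0.0319, edgeR).

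Psmd1 and Psmd2 are the largest non-ATPase subunits and serve as scaffolds and docking sites. Psmd1 (chromosome 1, 86064387 to 86139151, plus strand) had 0, 45.4 and 877.9 normalized reads as lowest, median and highest value in dendrites and 105.0, 610.5 and 1712 in somas. No 3′UTR read of it was counted in the dendrites of neurons 10, 12, 13, 15 and 16, but its exons had 357 reads in neuron 10 and 6 in neuron 13. The log2 fold change of Psmd1 was -3.71 ± 1.16 (SE; adjusted p = 0.0439, edgeR). A gene model named Gm21972 overlaps it on the same strand, and reads there cannot be told apart. Psmd2 (chromosome 16, 20651652 to 20663414, plus strand) had 0, 63.6 and 472.5 in dendrites and 196.4, 511.1 and 1341 in somas. Its log2 fold change was -3.20 ± 1.00 (SE; adjusted p = 0.0439, edgeR). For both genes the soma was higher in 14 of 16 neurons, and the ranges of the compartments overlap.

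These calls lay close to the threshold, and leaving out single neurons ended many of them. With neurons 15 and 16 left out, a choice made after seeing the data, 0 of the 45 members passed in edgeR and 14 had an unadjusted p under 0.05 in the soma direction; the log2 fold changes were then -5.25 for Psmd10, -2.40 for Psmd14, -2.75 for Psmd1 and -2.50 for Psmd2. The background in that fit was 0.928% for adjusted calls, and the unadjusted count has no background from the same fit. Without neuron 3, 15 or 16 alone there were also 0 calls (backgrounds of 2.33%, 2.17% and 1.19%), without neuron 4, 12 or 13 there was 1 (3.21%, 2.71% and 2.24%), without neuron 1, 7 or 11 there were 2 (2.94%, 3.69% and 4.91%), and without neuron 2 there were 8 (8.71%). The direction of the 4 genes was the same in each of these fits.

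**Figure D3:**
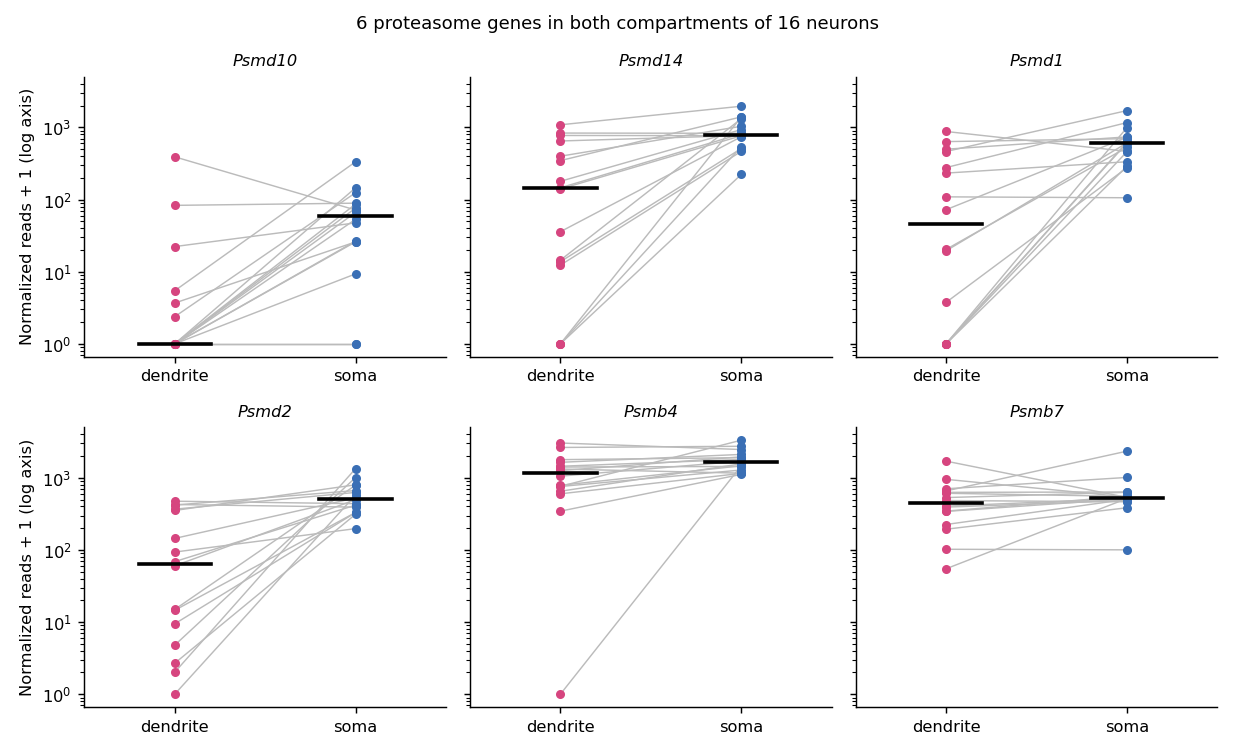
Normalized reads plus 1 (log axis) of 4 genes that passed the test and of Psmb4 and Psmb7, which did not, with a line joining the dendrites and the soma of each of 16 neurons and a black bar at the median. Psmd10, Psmd14, Psmd1 and Psmd2 spread widely in dendrites and closely in somas, with the exception of Psmd10, while Psmb7 overlaps almost fully.

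By role, the core rings lay near the median gene and the chaperones far below it. The 14 constitutive core subunits stood at -1.44 by the median of their log2 fold changes, 0.05 above the median gene, with 0 passing the test in edgeR and 5 at an unadjusted p under 0.05. Across the other settings, the core median relative to the median gene ran from -1.30 without the filter to 0.29 with 3 rounds. With DESeq2 it was -0.12. The 17 regulatory subunits had a median of -1.99, or 0.50 below, with 3 passing and 10 at an unadjusted p under 0.05. DESeq2 called 10 of the 14 and 13 of the 17 higher in somas. The shares of all genes higher in somas were 5.71% in edgeR, 26.7% at an unadjusted p under 0.05 and 46.2% in DESeq2. With the median gene set to 0, the core median was 0.05 and the regulatory median -0.50. In that fit 0 of the 45 members passed in edgeR (background 0.846%). At an unadjusted p under 0.05 there were 2 in each direction, a count without a background from the same fit.

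In the alpha ring, which forms the gate of the barrel, the 7 tested members had a median of -1.71. Psma7 was the highest at -0.58 ± 0.73 (SE; adjusted p = 0.580, edgeR) and had reads in all 16 dendrites, with normalized reads of 1.46 to 1354 (median 373.2) against 145.9 to 944.8 (median 572.6) in somas. The soma was higher in 10 of 16 neurons, and the ranges overlap. Psma1 was the lowest at -2.50 ± 1.00 (SE; adjusted p = 0.0957, edgeR), with a median of 192.9 in dendrites and 528.0 in somas. The other 5, Psma2 to Psma6, lay between -2.27 (Psma4) and -1.31 (Psma2). Their dendrite medians were 196.8 to 290.4 and their soma medians 470.3 to 715.4 normalized reads, and the soma was higher in 12 to 15 of the 16 neurons.

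The beta ring had a median of -1.21 over 8 tested members. Psmb7, the subunit with trypsin-like activity, was closest to equal: 53.8, 443.4 and 1701 normalized reads as lowest, median and highest value in dendrites and 99.3, 524.7 and 2339 in somas. The fitted log2 value was -0.17 ± 0.59 (SE; adjusted p = 0.854, edgeR), and the soma was higher in 11 of 16 neurons. The highest dendrite value of Psmb7, in neuron 13, came from 660 3′UTR reads, while its exons had 3 reads there. On exon counts the log2 value of Psmb7 was -0.21. Psmb4, a non-catalytic subunit, had the highest soma median of the 50 genes (1630, with 1156 in dendrites), and its log2 fold change was -0.54. Psmb6, the subunit with caspase-like activity, was at -0.49 (adjusted p = 0.667, edgeR). The structural subunits Psmb1, Psmb2 and Psmb3 ran from -1.68 (Psmb2) to -1.19 (Psmb3), with dendrite medians of 83.8 to 186.8 and soma medians of 240.3 to 599.1. Psmb5 carries the chymotrypsin-like activity that proteasome inhibitors target, and its 3′UTR counts were low in both compartments: 0 to 85.2 (median 20.9) in dendrites and 5.90 to 189.6 (median 64.4) in somas. Its annotated 3′UTR is 76 nt long, and its exon counts, divided by the same size factors, had higher medians of 71.1 and 233.0. By 3′UTR counts it was higher in the soma of 16 of 16 neurons, and the fitted log2 value was -2.44 ± 1.11 (SE; adjusted p = 0.132, edgeR).

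The inducible and tissue-specific core subunits were scarce, with 1 exception. Psmb10, an immunoproteasome subunit, had reads in 12 of 16 dendrites and 16 of 16 somas, with medians of 109.2 and 176.0 normalized reads and a log2 fold change of -1.23 (adjusted p = 0.454, edgeR). Psmb8, its partner in the immunoproteasome, had reads in 3 dendrites and 4 somas, and in neuron 13 the dendrites held 313 reads while the soma held 0. Psmb9, the other inducible subunit, had 3′UTR reads in 1 dendrite library and in 0 somas, and exon reads in 2 dendrites and 3 somas. Psmb11, the thymus subunit, was found in 8 dendrites and 3 somas, with at most 20.9 normalized reads. Psma8, the testis alpha subunit, had 3′UTR reads in 0 dendrites and 2 somas, and exon reads in 3 dendrites, at most 6.

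Among the 6 ATPases the median was -1.83. Psmc4 lay lowest, at -3.32 ± 1.15 (SE; adjusted p = 0.0650, edgeR), with a dendrite median of 24.3 and a soma median of 234.2, and the soma was higher in 15 of 16 neurons. Psmc1 lay highest at -1.17 ± 0.98 (SE; adjusted p = 0.399, edgeR), with medians of 97.8 and 245.9. Psmc6 was close to Psmc4 at -3.19 ± 1.07 (SE; adjusted p = 0.0572, edgeR), with medians of 61.7 in dendrites and 490.6 in somas. The remaining ATPases lay between -1.93 (Psmc3) and -1.48 (Psmc5), with dendrite medians of 68.1 to 184.9 and soma medians of 282.7 to 462.2.

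The 11 non-ATPase subunits had a median of -2.66, from -3.71 to -0.33. Adrm1, a ubiquitin receptor, and Shfm1, a small lid subunit, also belong to the particle but not to these symbols. They were at -0.95 and 0.43, and the median of all 13 was -1.99. Psmd13, a lid subunit, was the highest at -0.33 ± 1.04 (SE; adjusted p = 0.838, edgeR), with medians of 165.0 in dendrites and 201.4 in somas and 8 neurons in each direction. Psmd7, which pairs with Psmd14 in the lid, had a soma above its dendrites in 16 of 16 neurons (medians 39.5 and 308.5), with a log2 fold change of -3.06 and an adjusted p of 0.0668 (edgeR). The other lid subunits covered a wide range: Psmd6 was at -2.99, Psmd12 at -2.66, Psmd3 at -1.47, Psmd11 at -0.81 and Psmd8 at -0.54. Psmd4, a ubiquitin receptor, was at -1.99, with medians of 114.8 in dendrites and 280.8 in somas.

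The 5 activators and inhibitors had a median of -2.01 and 0 passed the test in edgeR, with 0 at an unadjusted p under 0.05. Psme4 (PA200), a nuclear activator, was lowest at -2.66 ± 1.40 (SE; adjusted p = 0.186, edgeR), but its value on exon counts was 0.12. Psme2, part of the PA28 activator, was level at -0.14 ± 1.16 (SE; adjusted p = 0.942, edgeR), with 8 neurons in each direction. Psme1, its partner in PA28, was at -1.70, Psme3, the activator of the nucleus, at -2.01 and the inhibitor Psmf1 at -2.13, with dendrite medians of 33.1 to 88.3 and soma medians of 130.8 to 283.0. Psme2b, an intronless copy of Psme2, had a log2 fold change of 1.91 (adjusted p = 0.201, edgeR), with medians of 5.20 in dendrites and 1.66 in somas; reads could be split between the copies, so that its value is uncertain.

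The 7 assembly chaperones had the lowest median, -3.84, with 1 passing (Psmd10) and 6 at an unadjusted p under 0.05. Reads were found in 6 to 12 dendrites, and the dendrite median was 0 for Psmg1. Psmg1 and Psmg2, which pair to start the alpha ring, were at -4.55 and -4.38, and Psmg3 was at -2.90. Psmd5 and Psmd9, which act on the ATPase ring, were at -3.84 and -2.81. The dendrite medians of these 5 were 0 to 15.9 and the soma medians 53.3 to 216.9, and the adjusted p ran from 0.0584 to 0.142 (edgeR). Psmg4, a chaperone of the alpha ring, was the one near 0, at -0.02 ± 1.04 (SE) with an adjusted p of 0.991 in edgeR. It had 33.4 normalized reads as dendrite median and 26.9 as soma median.

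**Figure D4:**
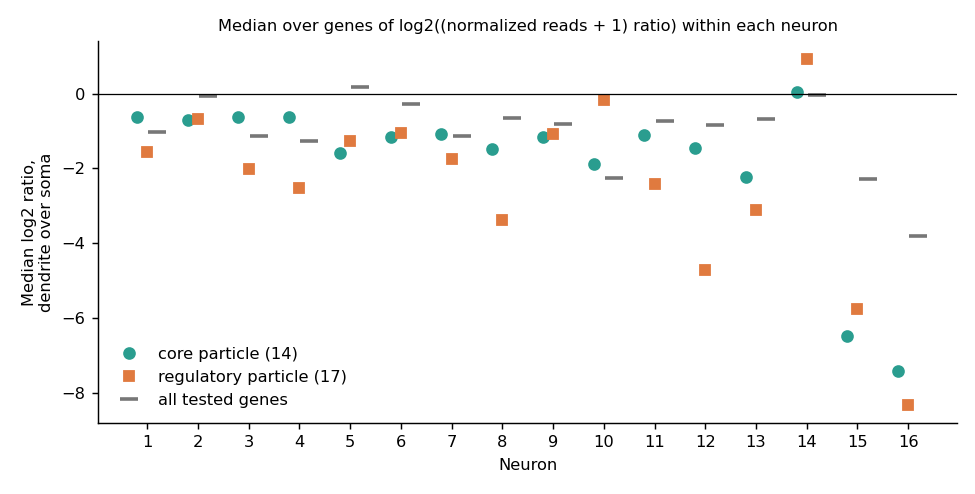
Median log2 ratio, dendrites over soma, within each neuron for 14 core subunits, 17 regulatory subunits and all tested genes, from normalized reads plus 1. Neuron 14 is the only one with core and regulatory medians above 0. Neurons 15 and 16 lie lowest in each set, and far below the others for the core.

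Within single neurons, the core and regulatory particles did not keep a fixed order. The per-neuron median log2 ratio, with 1 added to each normalized value, had a median over neurons of -1.16 for the core and -1.88 for the regulatory particle. The core lay above the regulatory particle in 9 of 16 neurons, and the difference ran from -1.71 in neuron 10 to 3.27 in neuron 12, with a median of 0.77. The median of all members lay above that of all tested genes in 4 of 16 neurons. Neuron 14 was the only neuron whose dendrites exceeded the soma for both particles, at 0.04 and 0.93.

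The dendritic read fraction, normalized dendrite reads over dendrite plus soma reads, measures how much this varies from cell to cell. Over 47 members with at least 5 usable neurons, the median of the mean fractions was 0.279 and the median SD was 0.244, compared with 0.335 and 0.323 over 10331 tested genes. Psmb4 had a mean of 0.374 ± 0.144 (SD, n = 16) and Psmb7 one of 0.433 ± 0.156. Psmd14 had 0.179 ± 0.186, and Psmd10 had 0.136 ± 0.261 over 13 neurons, with 0 in 7 of them.

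A group of 12 members was seen in 15 or 16 of the 16 dendrites, by 1 read or more, where 17.1% of tested genes were. The core contributed Psma3, Psma7, Psmb1, Psmb4 and Psmb7. From the regulatory particle came Psmc3, Psmc5, Psmd2, Psmd3, Psmd4, Psmd8 and Psmd11. None of the chaperones was among them.

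The rounds of amplification were the only batch that was tested. The labels also set apart the neurons with a spike-in dilution of 0, and the sample names group the neurons by letter. The paper reports that the neurons came from multiple cultures and days. These groupings were not tested. The compartment effect differed by rounds for 0 of 45 members in edgeR (0 of all genes), with 2 members at an unadjusted p under 0.05, Psmd5 and Psmg1 (background 2.65%). Among the 12 neurons with 2 rounds, 3 members were higher in somas (Psmd10, Psmd5 and Psmg1, with a background of 3.25%). Among the 4 with 3 rounds, 0 were (background 0.0092%). With 3 rounds, 6 members had an unadjusted p under 0.05, a count without a background from the same fit. The median member was at -2.14 with 2 rounds and -0.58 with 3, where the median gene was at -1.73 and -0.62.

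Scaling to the spike-in, which was added after seeing the data and uses 14 neurons, changed the reference. On that scale 40 of 45 members were higher in somas (background 62.7%), with 14 of 14 core and 16 of 17 regulatory subunits among them. The core median was then -3.99, the regulatory median -5.33 and the median gene -4.11.

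The count of members that passed moved with the scaling, the filter and the feature counted. Members higher in somas numbered 10 with RLE size factors (background 9.26%), 2 without mitochondrial genes (4.44%), 1 without the filter on low counts (0.46%), 1 where 10 reads were asked of 16 libraries (2.55%) and 2 on exon counts (2.62%). On exon counts of the 14 spike-in neurons with TMM scaling they numbered 7 (6.07%). With no block for neuron they numbered 0 (0.708%), and 1 member was higher in dendrites (1.44%), Psme2b. In that fit 6 members had an unadjusted p under 0.05 in the soma direction, a count without a background from the same fit.

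Genes that work with the proteasome were taken from a list of 33 symbols, of which 29 were in the table and 28 were tested. In edgeR 1 was higher in somas and 0 in dendrites, against 5.71% and 0.827% of all genes tested, with 10 and 1 at an unadjusted p under 0.05, against 26.7% and 3.55%, and the median was -1.11. The one that passed was Fbxo7, a ubiquitin ligase subunit that binds the inhibitor Psmf1, at -5.11 ± 1.52 (SE) on the log2 scale with an adjusted p of 0.0356 in edgeR and medians of 0.690 in dendrites and 69.9 in somas. Rps27a, a fusion of ubiquitin with a ribosomal protein, had a log2 fold change of 0.97 with an adjusted p of 0.194 (edgeR), and the polyubiquitin gene Ubb was at -0.49. Nfe2l1, the transcription factor that raises proteasome gene expression when proteasomes are inhibited, was at -0.53.

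Most proteasome genes had several 3′ ends, and whether a gene's ends were used alike in both compartments was compared within neurons. Of the 50 genes, 17 had a single end and 33 had more, up to 7. The fraction of reads on the higher-numbered of the top 2 ends was compared with the exact signed-rank test, two-sided, in 30 members with at least 10 reads on both ends together in each compartment of at least 5 neurons. At p under 0.1, 4 members passed, against 8.4% of the 3522 genes tested, and after Benjamini-Hochberg adjustment 0 members and 0 genes did. The deposited table numbers the ends but gives no positions, so a shorter and a longer end could not be named.

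Psmb2, a beta ring subunit, had the smallest p. The fraction on end 3, out of ends 2 and 3, was 0.0546 ± 0.0779 in dendrites and 0.137 ± 0.0983 in somas (SD, n = 12; exact signed-rank p = 0.00684, adjusted p = 0.821), and it was lower in the dendrites of 9 of 12 neurons. In 7 of these dendrite libraries the end had 0 reads out of 13 to 135 on the pair. Psma6, an alpha ring subunit, had 0.0864 ± 0.0940 on end 2 in dendrites and 0.183 ± 0.0649 in somas (SD, n = 12; exact signed-rank p = 0.0342, adjusted p = 0.948), lower in 9 of 12. Psmc4 had 0.0324 in dendrites and 0.0775 in somas (n = 9; exact signed-rank p = 0.0195), lower in 7 of 9. For Psmd14 the mean and the test differed in sign: the dendrite mean was 0.0298 and the soma mean 0.0126 (n = 12; exact signed-rank p = 0.0923), but 10 of 12 neurons were lower in dendrites, and neuron 14 alone reached 0.353. With at least 20 reads asked, Psmd14 no longer passed (exact signed-rank p = 0.193, n = 10) and the other 3 did, and with at least 8 neurons all 4 passed.

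**Figure D5:**
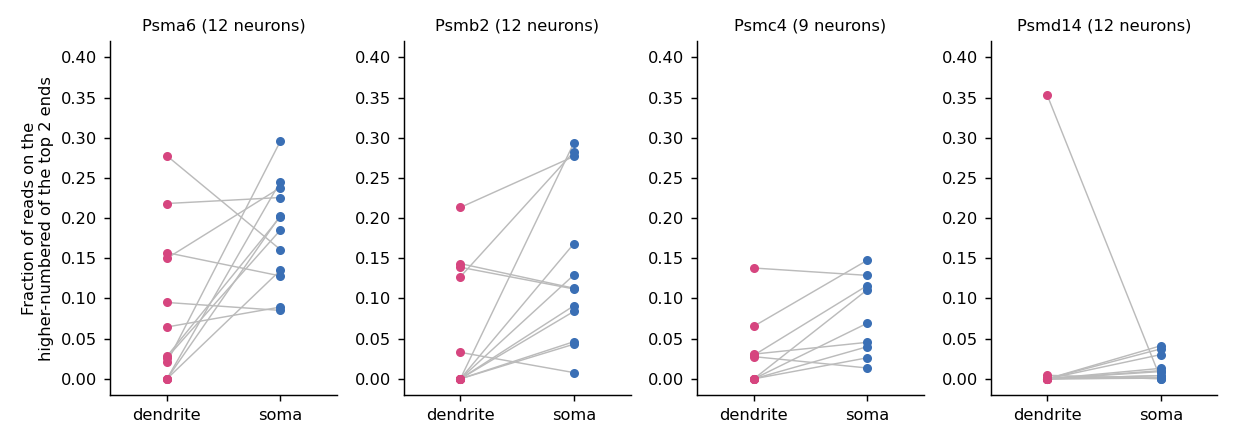
Fraction of reads on the higher-numbered of the top 2 3′ ends of 4 proteasome genes in the dendrites and the soma of the same neuron, joined by a line. Many dendrite points of Psmb2 and Psmd14 sit at 0, and a single neuron of Psmd14 reaches 0.353.

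The 3′UTRs of proteasome genes were short. In the GENCODE annotation on GRCm38 the 45 tested members had a median 3′UTR of 297 nt (47 to 2845), compared with 1502 nt over 9113 tested genes with a value. Across the 45 genes, which are not independent replicates, Spearman's rho between length and log2 fold change was -0.19, and it was 0.09 over all genes.

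Proteasome genes are known to share promoter elements of the antioxidant response type, to which Nfe2l1 binds. The core letters TGACNNNGC were searched on both strands in RefSeq promoters of GRCm38.p6, from 250 bases before to 50 after each start. They were found in 6 of 45 promoters of 42 member genes (13.3%) and in 12.4% of all 32851 promoters, so the share in members was near that of all promoters. The sites in 2 genes with catalytic subunits are shown, with the matched letters in capitals, since both encode catalytic subunits: Psmb5 (chr14:54618024-54618052, minus strand) and Psmb6 (chr11:70525338-70525366, plus strand).
Psmb5: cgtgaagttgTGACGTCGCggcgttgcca
Psmb6: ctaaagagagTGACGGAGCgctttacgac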

How the data were processed

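Soma and dendrite RNA of 16 neurons was sequenced, and all deposited values are raw read counts. The authors trimmed reads, aligned them to mm10 with STAR 2.4.0 and counted uniquely mapped reads by strand with VERSE, in 3′UTRs merged per gene, at single 3′ ends (last 500 nt) and in exons with ERCC spike-ins. Counts carry no molecular identifiers, so precision was taken from the spread between neurons.

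Genes were compared with edgeR 4.0.16 in R 4.3.3 (TMM, robust quasi-likelihood fit, neuron as a block, Benjamini-Hochberg over 10880 genes, adjusted p of at most 0.05), with DESeq2 1.42.0 as an alternative. Normalized reads are counts over DESeq2 size factors. Other values were computed with Python 3.11 and SciPy 1.17.1. The test was checked on simulated data with 200 changed genes and made no false call there. It missed most genes given the larger change and nearly all given the smaller one. A member that did not pass is therefore not shown to be equal.

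Both compartments came from the same cell. Deviations from the compartment mean correlated at 0.0851 ± 0.0741 (SD, n = 16) within a neuron and -0.00533 ± 0.0515 (SD, n = 240) between neurons. No 2 libraries of a compartment held identical counts.

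Members, gene lists and named genes were chosen with earlier results of these data known. Ranges, medians and test results were given for members that passed, and part of these values for the highest and lowest of each role. Values of some listed partner genes are not reported here.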

Additional observations from a re-analysis of the deposited data

Results flagged for a closer look

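In the 4 neurons with 3 rounds of amplification, the share of reads on regulatory subunits had a dendrite value far from the others, 0.200% in neuron 2, where the next was 0.0891%. The same share had a soma value far below the others, 0.179% in neuron 1, where the other 3 ran from 0.242% to 0.251%. About 1 in 20 groups of this size gives such a value by chance.

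Symbols of proteasome pseudogenes, left out of the members, had reads. Psmb5-ps had 212 reads, of which 173 lay in 4 dendrite libraries and 39 in 11 soma libraries. Psmb6-ps had 117 reads, with 108 in 2 dendrite libraries and 9 in 8 soma libraries. Reads of a parent gene can be split with such a copy, and this was not tested.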

How the results depend on the processing

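Every setting kept the median of the members below 0, and the calls moved with nearly every choice. Members higher in somas numbered 4, and became 33 with DESeq2, 10 with RLE size factors, 0 with the median gene set to 0, 2 without mitochondrial genes, 1 without the filter, 1 with at least 10 reads, 0 with 3 rounds and 2 on exon counts. Without the pairing by neuron (no replicate block) they were 0, and 1 member, Psme2b, was higher in dendrites, as with DESeq2. Leaving out each neuron gave 0 to 8, where 1.19% to 9.1% of all genes were called. Settings added after seeing the data gave 0 (without neurons 15 and 16), 40 (spike-in) and 7 (exon counts of the 14 spike-in neurons), and spike-in medians were -4.55 for all members, -3.99 for the core and -5.33 for the regulatory particle. Exon shares in dendrites and somas were 0.528% and 0.817% for all members, 0.271% and 0.390% for the core and 0.189% and 0.349% for regulatory subunits.

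Setting the median gene to 0 raises every gene by construction, and genes above the median then have a positive sign: the log2 fold change was 0.91 for Psma7, 1.32 for Psmb7, 0.32 for Psmc1, 1.16 for Psmd13, 1.34 for Psme2 and 1.44 for Psmg4. Other choices changed the sign of genes near 0, and exon counts that of Psme4. With 3 rounds the log2 fold change was 0.30 for Psma7, 0.61 for Psmb7, 0.41 for Psmd13, 0.026 for Psme2 and 1.99 for Psmg4. At least 10 reads gave 0.18 for Psmb7, 0.21 for Psme2 and 0.33 for Psmg4, and no mitochondrial genes gave 0.0052 for Psmg4. Without the replicate block it was 0.069 for Psmd13, 1.23 for Psme2 and 0.27 for Psmg4. Exon counts gave 0.032 for Psmd13, 0.48 for Psme2, 0.12 for Psme4 and 0.38 for Psmg4, and in the spike-in neurons 0.48 for Psme2, 0.28 for Psme4 and 0.10 for Psmg4. Without neurons 15 and 16 it was 0.32 for Psmd13 and 0.46 for Psmg4. Leaving out each neuron gave -0.25 to 0.28 for Psmb7, -0.51 to 0.20 for Psmd13, -0.49 to 0.48 for Psme2 and -0.30 to 0.61 for Psmg4. The causes were not tested. The 4 genes that passed kept their direction in all 29 alternatives.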
